A study of Mus musculus with 8 samples.

Results

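The antioxidant enzymes of the lens were examined in 10-day-old mice of the strains C57BL/6J and 129SvJae, each with and without the gap junction subunit α3Cx46, which lens fiber cells express from Gja3. Members were chosen by name: every gene whose symbol marks a glutathione S-transferase (Gsta, Gstm, Gstp, Gstt, Gsto, Gstz), a glutathione peroxidase (Gpx), a peroxiredoxin (Prdx), a thioredoxin (Txn) or a glutaredoxin (Glrx), together with Sod1, Sod2, Sod3, Cat, Gclc, Gclm, Gsr, Gss, Nqo1, Me1 and G6pdx. The rule found 47 genes among the 8251 genes that had a probe set with 1 symbol on the MG-U74Av2 chip, with 62 probe sets, and G6pdx was not among them. Each gene was represented by its probe set with the highest mean signal. The prefix Txn also took in Txnl4a, a component of the spliceosome, and Txnip, an inhibitor of thioredoxin.

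The 8 arrays comprised 2 each of C57BL/6J α3Cx46 KO, C57BL/6J WT, 129SvJae α3Cx46 KO and 129SvJae WT lenses, of both sexes, and every array received RNA pooled from several lenses. The KO mice carry a targeted disruption of α3Cx46 in all cells, and the lenses were taken before an opacity can be seen. The labels name the 2 arrays of a group as separate samples, but separate animals are not stated in the sources used here, and the p-values therefore measure only how far these samples spread, which may be technical. Signals are linear MAS5 intensities scaled to a common array mean, and a signal near or under 50 is close to background. All log2 signals entered 1 limma fit with a mean for each group, and calls were made where the p, adjusted by Benjamini-Hochberg over the 10078 probe sets tested, was under 0.05.

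Lens cells hold very high levels of reduced glutathione, which keeps crystallin thiols reduced and the tissue clear. Superoxide dismutases convert superoxide to hydrogen peroxide, which catalase, glutathione peroxidases and peroxiredoxins then remove. Glutathione peroxidases draw their electrons from glutathione and most peroxiredoxins draw theirs from thioredoxin, and both carriers are returned to the reduced form by reductases that consume NADPH. Many genes of this system are targets of the transcription factor Nrf2, which binds the antioxidant response element.

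The core of that element, TGACNNNGC on either strand, was searched in the 250 bases before and 50 bases after each annotated transcription start, and it is shown because it is the regulatory sequence this gene set is best known for. A window was at hand for 40 of the 47 genes (RefSeq, GRCm38.p6, the C57BL/6J reference), and 7 of the 40 (17.5%) held the core, against 14% of all 27025 genes with a window. The matches with 14 bases on either side are given below in the direction of transcription, and the capitals mark the core or its reverse complement.
Me1 (chr9:86695898-86695934, minus strand): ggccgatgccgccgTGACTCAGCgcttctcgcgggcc
Txnrd1 (chr10:82859100-82859136, plus strand): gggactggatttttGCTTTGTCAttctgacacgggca
Gclm (chr3:122245409-122245445, plus strand): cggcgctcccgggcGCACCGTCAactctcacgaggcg
Sod1 (chr16:90220692-90220728, plus strand): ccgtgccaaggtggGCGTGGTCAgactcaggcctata
Gstm5 (chr3:107895798-107895834, plus strand): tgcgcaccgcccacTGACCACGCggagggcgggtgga
Gsta3 (chr1:21240450-21240486, plus strand): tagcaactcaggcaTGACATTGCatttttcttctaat
Txndc5 (chr13:38528030-38528066, minus strand): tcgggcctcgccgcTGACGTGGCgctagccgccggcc
The match in Me1 begins 6 bases before the annotated start, and those in Gstm5 and Sod1 begin 42 and 56 bases before it. A match describes letters in the reference genome, and no 129SvJae sequence was compared.

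Of the 47 genes, 42 reached a mean of more than 50 in some group and were tested. The 5 that did not were Gpx7, Gsta1, Gsta2, Gsta4 and Gstt1. A signal above 50 on all 8 arrays was found for 35 of the 42 tested members, against 55.5% of all tested probe sets. Each member is shown by the brightest probe set of its gene, while all tested probe sets include dimmer ones. Of the members, 7 (Gss, Gstm1, Gstm5, Gstp1, Prdx2, Sod1 and Txn1) exceeded 1000 on every array. The other 7 tested members, Glrx, Gpx3, Gpx5, Gsta3, Gstt2, Nqo1 and Txnrd2, were under 50 on at least 1 array. The signals of different probe sets are not compared as amounts of mRNA.

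**Figure D1:**
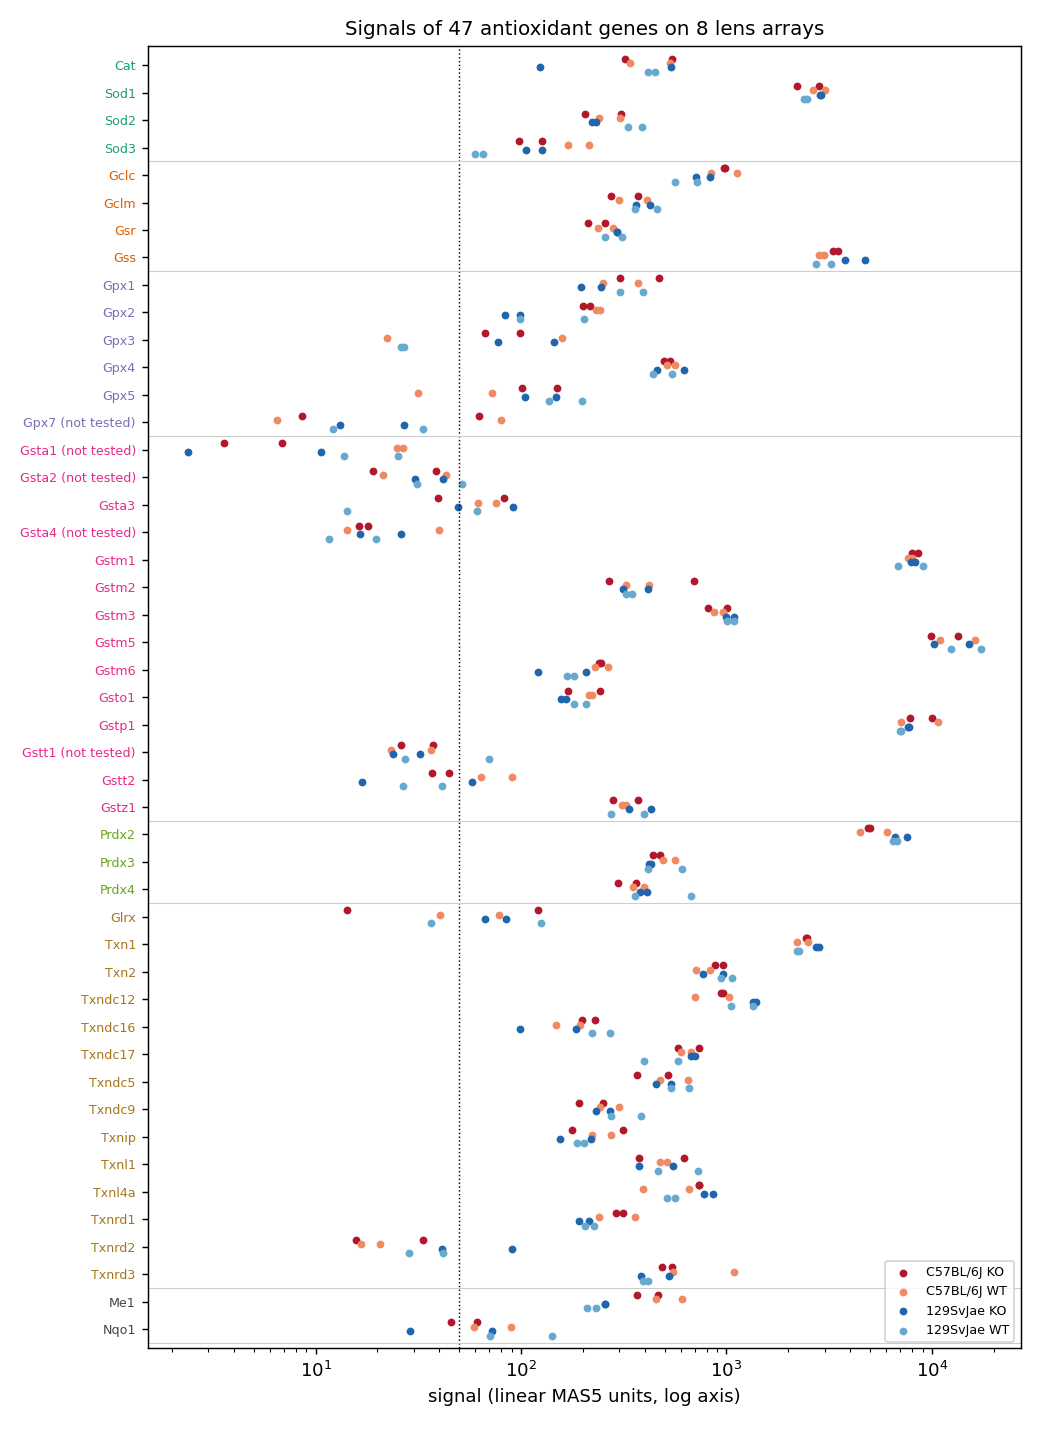
Signal of each of the 47 genes on each of the 8 arrays (linear MAS5 units on a log axis), ordered by role, with the label coloured by role and the dotted line at 50. The 4 groups overlap for most genes, and the 5 genes marked as not tested lie mainly left of the dotted line.

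The labels were checked on the targeted gene and on cell markers. Gja3 had signals of 448 and 519 in C57BL/6J KO and 472 and 445 in 129SvJae KO lenses, against 1968 and 3274 in C57BL/6J WT lenses and 1100 and 3381 in 129SvJae WT lenses. Of the WT arrays, 129SvJae WT replicate 1 lay nearest to the KO arrays for Gja3. For Prm1, which the paper proposes rises through the knockout construct, that array was again nearest (387, against 14.5 on replicate 2). Without it 0 members were called in any comparison, and the averaged KO log2 ratios of Gss and Txnl4a were 0.31 and 0.54. All 7 fiber markers and all 3 epithelial markers on the chip were above 50 on every array. The lens is a mixture of cell types, and in such bulk RNA fewer cells of a type and less RNA per cell cannot be told apart. The 4 arrays numbered replicate 1 shared a scan session, 3 of those numbered replicate 2 shared another, and 129SvJae WT replicate 2 was scanned apart from both. Median signals ran between 85.2 and 114.6. A fluidics error is recorded for C57BL/6J WT replicate 1.

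Between the strains, C57BL/6J lenses had higher signals for Me1 and Gclc and lower signals for Prdx2 and Txndc12, without overlap of the arrays. For Prdx2 this held for the brightest probe set, while a dimmer one was higher without overlap (log2 ratio 1.48). No antioxidant gene passed the adjusted threshold. For the strain difference averaged over genotypes, 4 arrays against 4, the count of members called was 0 of 42, where 0.367% of all tested probe sets were called. At an unadjusted p under 0.05, 6 members differed, against 6.98% of all tested probe sets. In 6 members the arrays of the strains did not overlap, against 5.57% of all probe sets. Of these, Me1, Gclc, Gstm6 and Txnrd1 were higher in C57BL/6J (2.95% of all) and Prdx2 and Txndc12 were lower (2.62%). Of the 42 log2 ratios, 22 were above 0 (50.9% of all tested probe sets were) and 20 below it, and their median of 0.01 stood beside 0.01 for all tested probe sets.

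**Figure D2:**
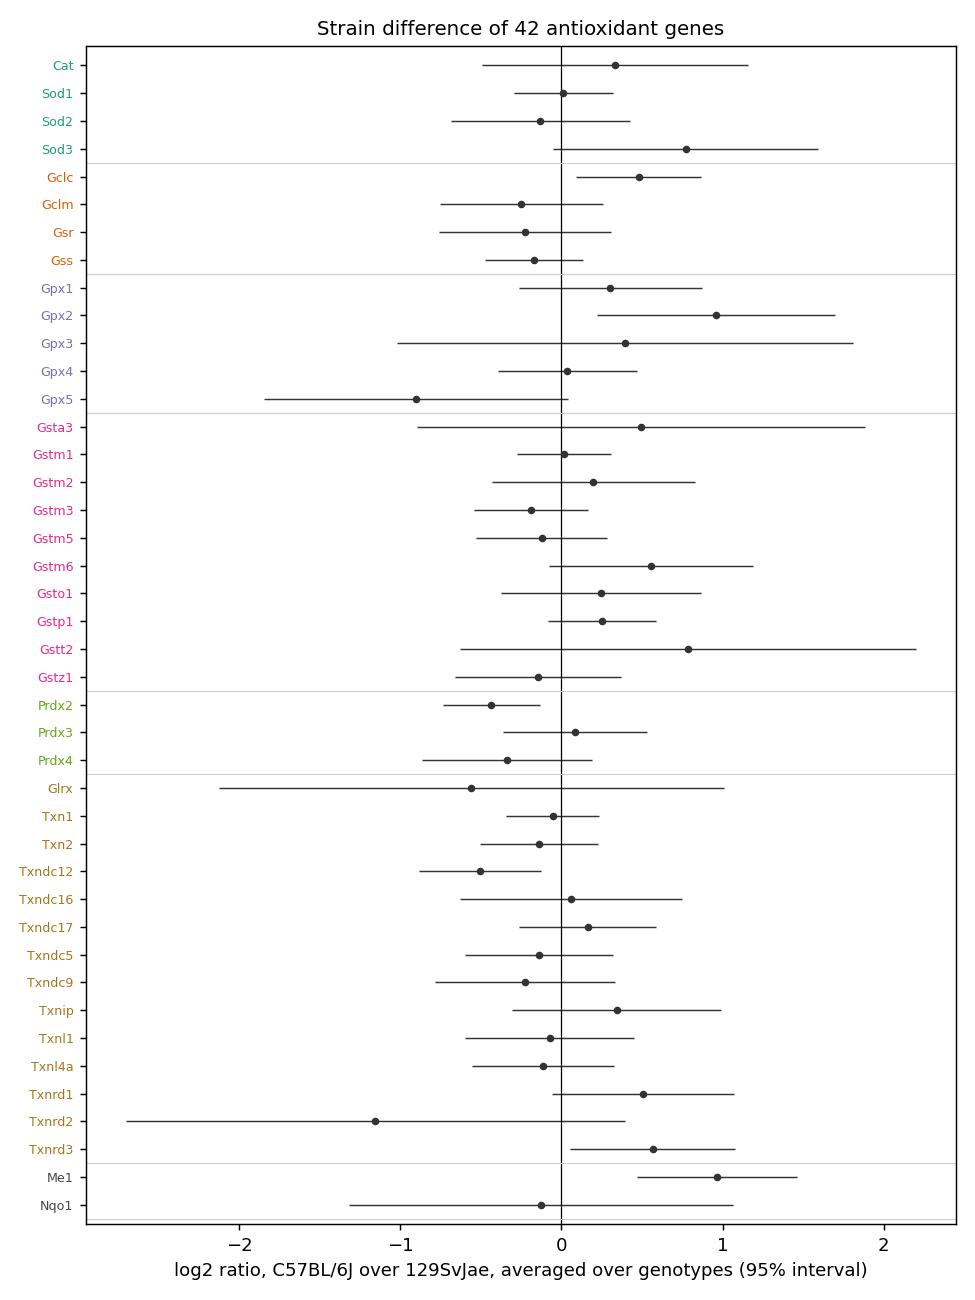
Log2 ratio of C57BL/6J over 129SvJae lenses, averaged over genotypes, for the 42 tested genes, with its 95% interval from the limma fit (4 arrays against 4). The intervals of Me1, Gpx2, Gclc and Txnrd3 lie above 0 and those of Prdx2 and Txndc12 below it, and none of the 6 passes the adjustment over all probe sets.

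Me1, the cytosolic malic enzyme that makes NADPH, had the smallest p of all members. Its signals were 368 and 462 in C57BL/6J KO and 451 and 610 in C57BL/6J WT lenses, against 258 and 258 in 129SvJae KO and 209 and 230 in 129SvJae WT lenses. All 4 C57BL/6J arrays were above all 4 129SvJae arrays, with means of 473 ± 101 and 239 ± 23.5 (SD, n = 4 each). The averaged log2 ratio was 0.97 (SE 0.23), a fold of 1.96, with a limma adjusted p of 0.145. Within replicate 1, which shared a scan session, the log2 ratio was 0.81, and within replicate 2 it was 1.12. Among KO lenses the log2 ratio was 0.68 (SE 0.33, adjusted p = 0.9997, limma), among WT lenses it was 1.26 (SE 0.33, adjusted p = 0.384), and the interaction of -0.58 (SE 0.46) was not called. Nqo1, a quinone reductase and the other member of this role, had signals between 28.8 and 141 and a strain log2 ratio of -0.13 (SE 0.55). The brightest probe set of Nqo1 is marked on the chip as shared within a gene family.

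In the synthesis of glutathione, Gclc encodes the catalytic and Gclm the modifier subunit of the enzyme of the first and rate-limiting step, and Gss encodes the enzyme of the step after it. Gclc had signals of 973 and 984 in C57BL/6J KO and 840 and 1119 in C57BL/6J WT lenses, against 712 and 829 in 129SvJae KO and 562 and 719 in 129SvJae WT lenses. The lowest C57BL/6J array was 840 and the highest 129SvJae array 829, so that the strains were separated by a narrow gap. The log2 ratio was 0.48 (SE 0.18, adjusted p = 0.526, limma), with 0.35 (SE 0.25) among KO lenses and 0.61 (SE 0.25) among WT lenses. Gclm, whose product partners that of Gclc, had a log2 ratio of -0.25 (SE 0.23), with a 95% interval from -0.75 to 0.26. Gsr, the reductase that restores glutathione, had a log2 ratio of -0.23 (SE 0.25), and the ratio for Gss was -0.17 (SE 0.14).

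Among the superoxide dismutases, the extracellular enzyme Sod3 had its widest gap between the strains in the WT arrays. Its signals were 97.4 and 127 in C57BL/6J KO lenses, 214 and 169 in C57BL/6J WT lenses, 127 and 106 in 129SvJae KO lenses and 59.7 and 65.7 in 129SvJae WT lenses. The C57BL/6J WT arrays were the highest and the 129SvJae WT arrays the lowest, while the KO arrays of both strains lay between them. The log2 ratio was -0.06 (SE 0.54) among KO lenses and 1.60 (SE 0.54, adjusted p = 0.625, limma) among WT lenses. The interaction, the test of that difference, was -1.66 (SE 0.76) with an unadjusted p of 0.0474 and an adjusted p of 0.9998. At an unadjusted p under 0.05, Sod3 was the 1 member of 42 for the interaction, where the share was 2.11% of all tested probe sets.

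Sod1, the cytosolic dismutase, had signals of 2207 and 2829 in C57BL/6J KO and 2651 and 3010 in C57BL/6J WT lenses, against 2866 and 2870 in 129SvJae KO and 2457 and 2382 in 129SvJae WT lenses. Its strain log2 ratio was 0.01 (SE 0.14) with a 95% interval from -0.29 to 0.32. Sod2, the mitochondrial dismutase, ranged between 205 and 387 with a log2 ratio of -0.13 (SE 0.26). Cat, which encodes catalase, ranged between 124 and 540 and had one of the wider replicate spreads, with an SD of 0.83 on the log2 scale. Its log2 ratio was 0.33 (SE 0.38), and its probe set belongs to a family that can share sequence with other transcripts. A dimmer Cat probe set without that mark gave 0.12 (SE 0.30). For the averaged KO effect the brightest gave -0.39 (SE 0.38) and the dimmer one 0.095 (SE 0.30).

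**Figure D3:**
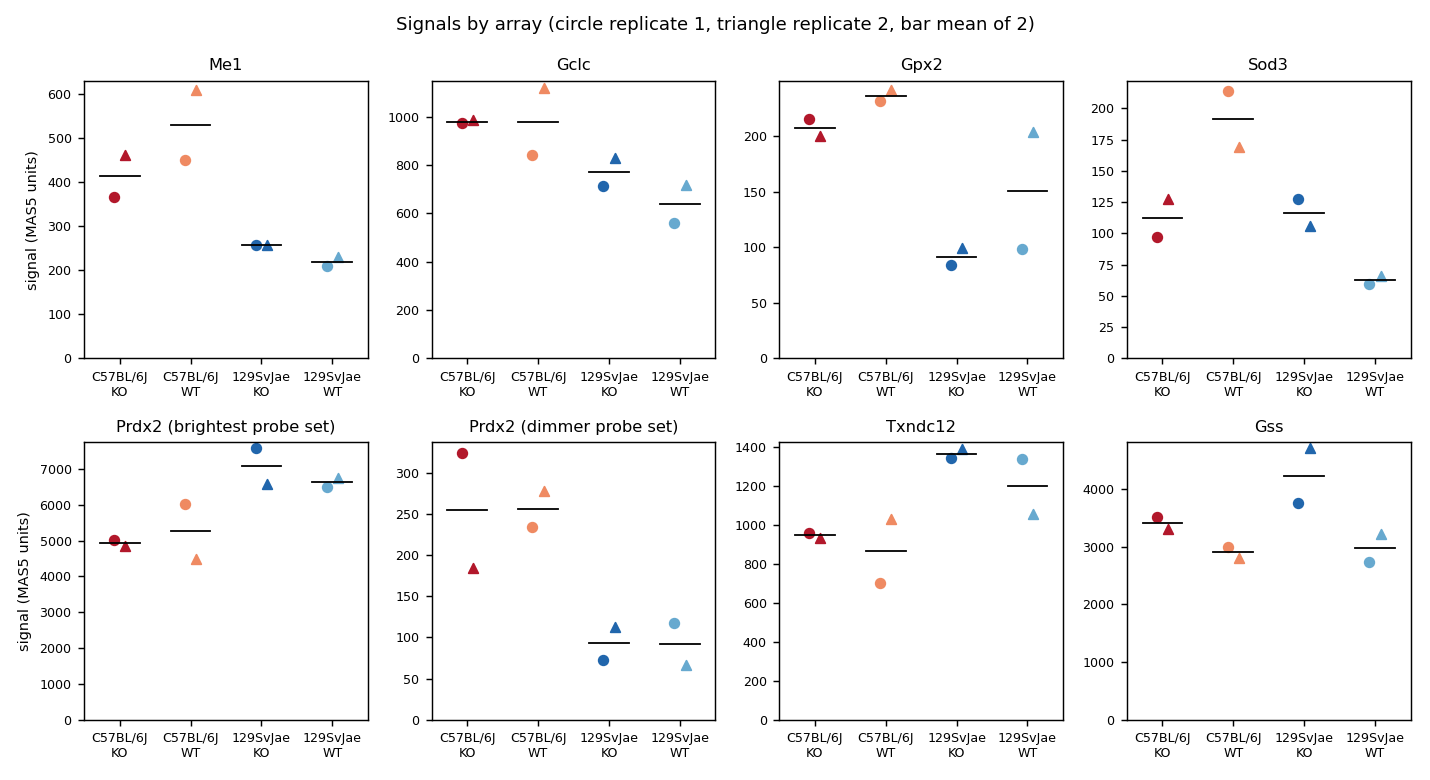
Signals (linear MAS5 units, axes from 0) of 7 genes, with Prdx2 shown by its brightest and a dimmer probe set, in C57BL/6J KO, C57BL/6J WT, 129SvJae KO and 129SvJae WT lenses. Circles are replicate 1, triangles replicate 2 and bars the mean of 2. Me1 and Gclc are higher in all C57BL/6J arrays, and the 2 probe sets of Prdx2 run in opposite directions.

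Prdx2, a cytosolic peroxiredoxin that is also abundant in red blood cells, was lower in C57BL/6J lenses by its brightest probe set and higher by another. The brightest probe set had signals of 5007 and 4857 in C57BL/6J KO and 6034 and 4480 in C57BL/6J WT lenses, against 7583 and 6580 in 129SvJae KO and 6495 and 6753 in 129SvJae WT lenses. The highest C57BL/6J array was below the lowest 129SvJae array, with means of 5095 ± 665 and 6853 ± 499 (SD, n = 4 each). The log2 ratio was -0.43 (SE 0.14, adjusted p = 0.386, limma), and it was -0.52 (SE 0.20) in KO and -0.35 (SE 0.20) in WT lenses.

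The dimmer Prdx2 probe set had signals of 324 and 185 in C57BL/6J KO and 234 and 278 in C57BL/6J WT lenses, against 72.4 and 113 in 129SvJae KO and 118 and 67.1 in 129SvJae WT lenses. Its arrays did not overlap either, in the opposite direction, with a log2 ratio of 1.48 (SE 0.37, adjusted p = 0.170, limma). Another probe set, the dimmest, lay between 1.90 and 8.89 and was not tested. The direction for Prdx2 therefore depends on the probe set.

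Red blood cell markers were checked beside Prdx2. Of 7 such markers, 4 were on the chip, and their summed signal was 509 to 782 in C57BL/6J KO lenses, 345 to 656 in C57BL/6J WT lenses, 683 to 701 in 129SvJae KO lenses and 636 to 903 in 129SvJae WT lenses. All 3 tested red cell markers had strain log2 ratios below 0, with a median of -0.52, and none was called. Alas2, which defines the lineage, was under 50 on every array, while Hba-a1 lay between 162 and 641. Their part in the Prdx2 signal was not tested. The mitochondrial Prdx3 ranged between 414 and 609, and Prdx4, of the endoplasmic reticulum, ranged between 296 and 675. The strain log2 ratio was 0.08 (SE 0.21) for Prdx3 and -0.34 (SE 0.24) for Prdx4.

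Of the glutathione peroxidases, Gpx2 had the largest strain log2 ratio in KO lenses. Signals of this gastrointestinal peroxidase were 216 and 200 in C57BL/6J KO and 232 and 242 in C57BL/6J WT lenses, against 84.0 and 99.3 in 129SvJae KO and 98.6 and 204 in 129SvJae WT lenses. All C57BL/6J arrays were near 200 or above and 3 of the 129SvJae arrays were under 100, but 129SvJae WT replicate 2 reached the C57BL/6J range. The averaged log2 ratio was 0.96 (SE 0.34, adjusted p = 0.470, limma), with 1.18 (SE 0.48) in KO lenses and 0.74 (SE 0.48) in WT lenses.

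Gpx4, the peroxidase that reduces lipid hydroperoxides in membranes, had signals of 529 and 496 in C57BL/6J KO and 511 and 561 in C57BL/6J WT lenses, against 461 and 619 in 129SvJae KO and 437 and 545 in 129SvJae WT lenses. The strains overlapped throughout, and the log2 ratio was 0.04 (SE 0.20, 95% interval from -0.39 to 0.47). Gpx1, the main cytosolic peroxidase, ranged between 195 and 470 with a log2 ratio of 0.30 (SE 0.26). Gpx5, known as an epididymal enzyme, had signals of 150 and 101 in C57BL/6J KO and 72.7 and 31.7 in C57BL/6J WT lenses, against 149 and 105 in 129SvJae KO and 197 and 137 in 129SvJae WT lenses. Only the C57BL/6J WT arrays stood low, and the strain log2 ratio was -0.02 (SE 0.62) among KO lenses and -1.78 (SE 0.62, adjusted p = 0.629, limma) among WT lenses. Without C57BL/6J WT replicate 2, the lowest array, the ratio among WT lenses was -1.18. A dimmer Gpx5 probe set gave -0.12 (SE 0.65) for the log2 ratio of WT lenses.

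Glutathione S-transferases couple glutathione to electrophiles. Of the 14 on the chip 10 were tested, 7 with a strain log2 ratio above 0 and 3 below, with a median of 0.22. None was called. Of all tested probe sets, 50.9% had a ratio above 0, with a median of 0.01. Gstt2, the highest of the 7 (0.79, SE 0.66), passed the level of 50 through C57BL/6J WT lenses alone. Only 3 of its arrays were above 50. For Gstm2, also among the 7, the brightest probe set gave 0.20 and the other one -0.55. Gstm5, the brightest by its probe set, had signals of 13454 and 9932 in C57BL/6J KO and 16154 and 10911 in C57BL/6J WT lenses, against 15083 and 10211 in 129SvJae KO and 17301 and 12425 in 129SvJae WT lenses. Replicate 1 was the higher in each of the 4 groups, and the strain log2 ratio was -0.12 (SE 0.19). Gstm1 ranged between 6823 and 9008 with a log2 ratio of 0.02 (SE 0.14), and Gstp1 ranged between 7005 and 10679 with a log2 ratio of 0.25 (SE 0.16). Gstm6, with non-overlapping strains, averaged 245 ± 15.2 in C57BL/6J and 169 ± 35.7 in 129SvJae lenses (SD, n = 4 each), and its log2 ratio was 0.56 (SE 0.29, adjusted p = 0.796, limma). The brightest probe sets of Gstm1, Gstm3 and Gstm5 are marked on the chip as shared within a gene family, and the Gstm genes are close paralogs, so their signals are uncertain as those of single genes.

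In the thioredoxin system, Txn1, the cytosolic thioredoxin, had the smallest replicate spread of all members, with an SD of 0.065 on the log2 scale. Its signals were 2440 and 2473 in C57BL/6J KO and 2481 and 2207 in C57BL/6J WT lenses, against 2730 and 2830 in 129SvJae KO and 2263 and 2193 in 129SvJae WT lenses. The strain log2 ratio was -0.05 (SE 0.13), with a 95% interval from -0.34 to 0.24. Txn2, the mitochondrial thioredoxin, had a ratio of -0.14 (SE 0.17).

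Txndc12, a thioredoxin-like protein of the endoplasmic reticulum, had signals of 960 and 936 in C57BL/6J KO and 705 and 1032 in C57BL/6J WT lenses, against 1345 and 1391 in 129SvJae KO and 1342 and 1056 in 129SvJae WT lenses. The strains did not overlap, although 1032 and 1056 were close, and the log2 ratio was -0.51 (SE 0.18, adjusted p = 0.449, limma). Txnrd1, the cytosolic thioredoxin reductase, averaged 299.9 ± 49.8 in C57BL/6J and 209 ± 15.1 in 129SvJae lenses (SD, n = 4 each), without overlap. Its log2 ratio was 0.51 (SE 0.26, adjusted p = 0.774, limma).

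Txnrd3, a reductase known from testis, had signals of 541 and 486 in C57BL/6J KO and 550 and 1084 in C57BL/6J WT lenses, against 523 and 384 in 129SvJae KO and 417 and 391 in 129SvJae WT lenses. One array, C57BL/6J WT replicate 2, was well above the other 7, and without it the averaged log2 ratio was 0.32, against 0.57 (SE 0.24, adjusted p = 0.642, limma) with all arrays. A dimmer Txnrd3 probe set, with a mean signal of 43.1, gave an averaged log2 ratio of 0.33 (SE 0.78). Txnrd2, the mitochondrial reductase, passed the level of 50 through 129SvJae KO lenses alone. Its signals were 15.8 to 33.3 on the C57BL/6J arrays and 28.6 to 90.5 on the 129SvJae arrays, 1 of them above 50, so that its strain log2 ratio of -1.15 (SE 0.72) rests on signals close to background.

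In KO lenses alone, 2 members had an unadjusted p under 0.05 for the strain difference (Prdx2 and Gpx2), against 3.74% of all tested probe sets, and 0 were called, against 0.0893%. In WT lenses alone, 5 members did (Me1, Sod3, Gpx5, Txnrd3 and Gclc), against 6.47%, and 0 were called, against 0.0695%. With 2 arrays against 2, the strains did not overlap in 19 members in KO lenses (31.9% of all tested probe sets) and in 21 members in WT lenses (32.3%). The sign of the strain difference was shared by KO and WT lenses in 27 of the 42 members (64.3%), against 55.2% of all tested probe sets.

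Loss of α3Cx46 was followed by no called change in any antioxidant gene. For the KO effect averaged over strains, 0 of 42 members were called, against 0.0198% of all tested probe sets, and 2 members, Gss and Txnl4a, had an unadjusted p under 0.05, against 3.05%. These 2 were also the members whose KO and WT arrays did not overlap, both higher in KO, where the share of all probe sets in that direction was 0.972%. The log2 ratios of KO over WT were above 0 in 19 members (47.3% of all tested probe sets) and below it in 23, with a median of -0.03, beside -0.02 for all tested probe sets.

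Gss, the glutathione synthetase, had signals of 3509 and 3298 in C57BL/6J KO and 3758 and 4707 in 129SvJae KO lenses, against 2999 and 2806 in C57BL/6J WT lenses and 2738 and 3218 in 129SvJae WT lenses. All KO arrays were above all WT arrays, with means of 3818 ± 622 and 2940 ± 216 (SD, n = 4 each), although the lowest KO array was close to the highest WT array. The log2 ratio was 0.37 (SE 0.14, adjusted p = 0.998, limma), with 0.23 (SE 0.20) in C57BL/6J and 0.50 (SE 0.20) in 129SvJae lenses. A dimmer probe set of Gss had a log2 ratio of -0.17 (SE 0.34), so that the direction was not shared.

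Txnl4a, the splicing component that the prefix took in, had signals of 732 and 738 in C57BL/6J KO and 857 and 776 in 129SvJae KO lenses, against 659 and 392 in C57BL/6J WT lenses and 513 and 561 in 129SvJae WT lenses. The KO arrays were all above the WT arrays, and the log2 ratio was 0.57 (SE 0.20, adjusted p = 0.998, limma).

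Within 1 strain, Gpx5 in C57BL/6J lenses was the 1 member with an unadjusted p under 0.05 (log2 ratio 1.36, SE 0.62, or 0.76 without C57BL/6J WT replicate 2), against 2.31% of all tested probe sets, and Gss was that 1 member in 129SvJae lenses, against 3.12%. The count called was 0 in both strains, against 0.00992% of all tested probe sets in C57BL/6J and 0.0% in 129SvJae. The arrays of KO and WT lenses did not overlap in 10 members in C57BL/6J (27.7% of all) and in 15 members in 129SvJae (29.8%). The 3 genes given as markers of this set had averaged KO log2 ratios of -0.06 (SE 0.23) for Me1, 0.06 (SE 0.38) for Sod3 and 0.01 (SE 0.14) for Prdx2. The interaction of strain and genotype was called for 0 members, against 0.0% of all tested probe sets.

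**Figure D4:**
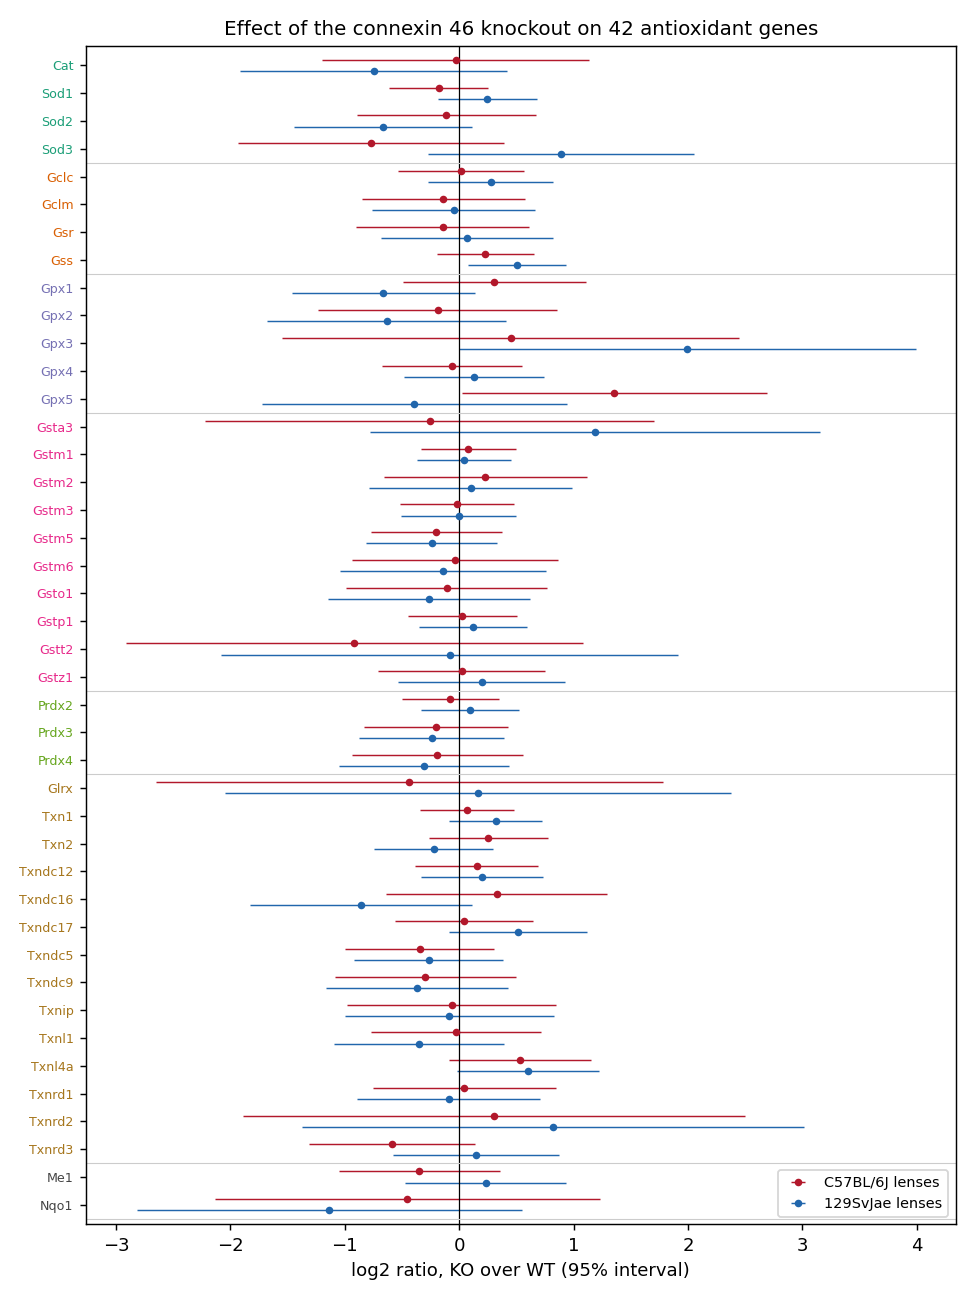
Log2 ratio of KO over WT for the 42 tested genes in C57BL/6J and in 129SvJae lenses, with 95% intervals from the limma fit (2 arrays against 2). Most intervals include 0 in both strains, the exceptions being Gpx5 in C57BL/6J and Gss in 129SvJae lenses, and the intervals of dim genes such as Gpx3 and Glrx are wide.

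Markers of the lens and of other cells were set beside the KO effect. All 7 fiber markers had a KO log2 ratio below 0, with a median of -0.33 averaged over strains, and none was called. Their summed signal was 197434 to 244763 in C57BL/6J KO and 170013 to 228906 in 129SvJae KO lenses, against 210415 to 322285 in C57BL/6J WT lenses and 239358 to 298418 in 129SvJae WT lenses. Of the 4 haploid germ cell markers on the chip, Prm1 was called (log2 ratio 6.13, SE 0.73, adjusted p = 0.0119, limma). Its signals were 1386 and 1340 in C57BL/6J KO lenses and 1582 and 2167 in 129SvJae KO lenses. They were 9.99 and 4.70 in C57BL/6J WT lenses and 387 and 14.5 in 129SvJae WT lenses. The paper proposes that the Prm1 rise likely comes from the knockout construct, which held a protamine polyadenylation sequence. The source of the Prm1 signal was not tested here. Tnp1 and Tnp2 were not called and Prm2 was not tested. Of the red cell markers, Slc4a1 was lower on all KO arrays than on all WT arrays (log2 ratio -1.10, SE 0.38, adjusted p = 0.998, limma), while Hba-a1 and Epb42 had ratios above 0. All 3 tested macrophage and leukocyte markers had ratios above 0, with a median of 0.49, and all 3 smooth muscle and iris markers had ratios below 0, with a median of -0.33. None of these was called. Retina and pigment cell markers had 2 ratios above 0 and 5 below, with a median of -0.58, vascular endothelial markers 3 above and 2 below, with a median of 0.20, and epithelial markers 1 above and 2 below, with a median of -0.09, again with none called. The part of these markers in the KO ratios of the antioxidant genes was not tested.

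The intervals show what the arrays could resolve. The 95% interval of the strain difference lay within 2-fold in either direction for 28 of the 42 members, and that of the averaged KO effect for 32. Among these, for both comparisons and by the brightest probe set, were Sod1, Txn1, Gpx4, Gstm1, Gstp1, Gss and Prdx2. For Prdx2 the dimmer probe set, with its strain log2 ratio of 1.48, was not within that range. The replicate SD of the members had a median of 0.27 on the log2 scale, against 0.54 for all tested probe sets. These medians are not matched for signal, since each member is the brightest probe set of its gene. The median was 0.65 for the 2 members with a mean signal under 50 and 0.54 for the 9 between 50 and 200. It was 0.26 for the 23 between 200 and 1000, and 0.16 for the 8 above 1000.

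**Figure D5:**
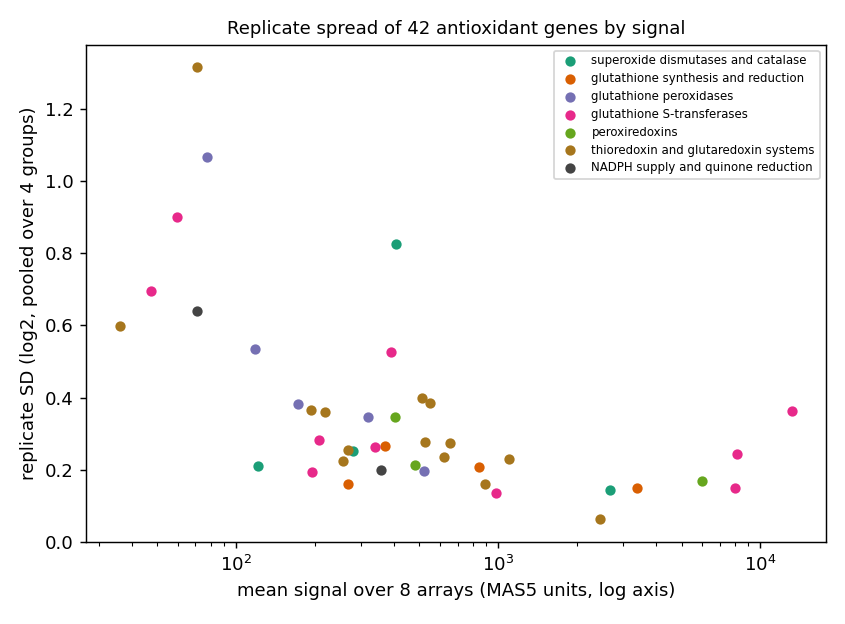
Replicate SD of the 42 tested genes (log2, pooled over the 4 groups) against mean signal over 8 arrays (MAS5 units, log axis), coloured by role. The SD is mostly under 0.4 above a signal of 200, with Cat and Gstm2 above that, and reaches 1.31 for Glrx among the dim genes.

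Across the chip, and among the members, some deviations followed the replicate number. Replicate 1 was the higher in all 4 groups for 7 members (Gstm5, Gpx5, Gstt2, Txndc16, Txnip, Txnl1 and Txnrd1), against 14.5% of all tested probe sets, and the lower in all 4 for Gclc, against 9.53%. With the scan session or the replicate number as a block, no member was called in any comparison, and the smallest adjusted p was that of Me1 for the averaged strain difference, 0.0808 with the replicate block (limma).

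Other genes of the same pathways were followed by a companion list of transporters, NADPH-supplying enzymes, glyoxalases, metallothioneins, ferritins and regulators. Of 47 listed genes 38 were on the chip and 35 were tested, and none was called in any of the 7 comparisons. In the averaged strain difference, 16 had log2 ratios above 0 and 19 below, with a median of -0.03. At an unadjusted p under 0.05 there were 3 of 35, where the share of all tested probe sets was 6.98%. These 3, named after their values were seen, were Aldh1a1, an aldehyde dehydrogenase of the lens (log2 ratio 0.36, SE 0.13), Glo1, which detoxifies methylglyoxal (-0.42, SE 0.16), and Park7, a redox-sensitive chaperone (-0.32, SE 0.13). In the averaged KO effect 0 of the 35 had an unadjusted p under 0.05 in limma, with 17 log2 ratios above 0 and 18 below.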

How the data were processed

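RNA from pools of lenses was hybridized to 8 MG-U74Av2 arrays. The authors summarized each probe set as a signal intensity with MAS5 (the tool in the submitters' processing notes), scaled to a mean of 250, and these deposited linear values were used. The deposited run records gave the scan session and the chip lot. Arrays were brought to a 2% trimmed mean of 250, 1 signal at or under 0 was set to 1, and log2 was taken. After removal of 66 controls from 12488 probe sets, the 10078 with a group mean above 50 were tested. One limma fit (limma 3.58.1, R 4.3.3) with 4 group means, a variance trend, 4 residual and 9.17 prior degrees of freedom gave 7 comparisons, each adjusted by the Benjamini-Hochberg method. Signals are given for Me1, Sod3, Prdx2, members with an unadjusted p under 0.05 and the brightest member of each role. Members and lists were chosen with earlier results of these data known. Array number and signal over background limit the precision. The fit was tested on simulated data. Same-numbered arrays deviated together, with correlations of 0.130 to 0.206 in all 6 pairs of groups. The replicate 1 arrays shared a chip lot as well as a scan session, and the replicate 2 arrays came from other lots. What links same-numbered arrays was not tested. Genes were named from probe sets with 1 symbol in the platform annotation. Alternatives covered scaling, offset, floor, level filter, variance prior, blocks, weights, the methods' t-test, other probe sets, only the groups compared and each array left out.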

Additional observations from a re-analysis of the deposited data

How the results depend on the processing

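In all 7 comparisons 0 members were called under all of the alternatives run, 21 to 24 for each comparison, including the replicate block (0 called) and the fits without 1 of the 8 arrays (0 to 0 called). Among the members and comparisons with an unadjusted p under 0.05, and for Sod3, choosing another probe set of the gene reversed 5 log2 ratios, and the cause was not tested. For Prdx2 the other probe set gave 1.48 for the averaged strain difference and 1.44 in KO lenses. For Gss it gave -0.17 for the averaged KO effect and -0.0092 for the KO effect in 129SvJae lenses. For Gpx5 it gave -0.044 for the KO effect in C57BL/6J lenses. The adjusted p of Me1 for the averaged strain difference ran between 0.0808 and 0.555 over its alternatives (limma, or the methods' t-test where that was the alternative). Its log2 ratio ran between 0.86 and 1.08 with 1 array left out. Of 14 other probe sets tested, 10 had the sign of the brightest one for the averaged strain difference and 4 for the averaged KO effect, so that 4 and 10 had the opposite sign. Outside the 5, the other probe set gave 1.52 for Prdx2 among WT lenses. For the averaged strain difference it gave 0.36 for Nqo1, -0.55 for Gstm2 and -0.09 for Txnip, each opposite in sign to the brightest. With 2 arrays per group, and dim signals for several members, differences smaller than the intervals could not be resolved.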
